A study of Mus musculus with 20 samples.

Results

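Blood taken 25 days after inoculation with hepatoma cells was compared with blood taken from the same mice 10 days after inoculation, the last and the first bleed after the tumour cells were given. The members were the 4 arrays labelled day 25 and the 4 labelled day 10, which is 8 of the 20 arrays of the series, matched by mouse number. The animals were 4 female C57Bl/6 mice, numbered 305, 310, 315 and 320, each of which had received cells of Hepa1-6, a mouse hepatoma line, under the skin. The day 25 and day 10 samples therefore share the strain, the sex, the inoculation and the animal, and differ in the day of bleeding. The same mice were also bled on days 0, 15 and 20. Every array carried 1 blood sample in the dye Cy5 and, in the dye Cy3, a common reference of blood from untreated female C57Bl/6 mice. A level below is log2(Cy5/Cy3), centred by loess so that 0 is the usual ratio to the reference blood at that brightness, and a change is the day 25 level minus the day 10 level. No mice without tumour cells bled on these days were analysed here.

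Whole blood RNA is a mixture. Most of it by mass comes from reticulocytes, the youngest red cells, which have lost their nucleus but still hold globin mRNA and the mRNAs of the last steps of red cell making, and which lose that RNA as they mature by clearing ribosomes and mitochondria. The rest comes from white cells, chiefly B cells, T cells and neutrophils, and from platelets. A lower level of a cell type's transcripts in bulk blood can come from fewer of those cells or from less RNA per cell, and these arrays cannot tell these apart.

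The arrays held the transcripts of blood. Of the 40 genes of the erythroid list 35 were measured, and so were 24 of 26 neutrophil, 20 of 21 B cell and 26 of 26 T cell genes, against 14 of 28 genes of a liver and hepatoma list. Between 47.7% and 52.2% of spots were well above background in Cy5 on the day 25 arrays and between 38.3% and 45.9% on the day 10 arrays. The median net Cy5 intensity was 21.9 to 29.7 on day 25 and 17.0 to 21.1 on day 10, and that of the reference in Cy3 was 24.1 to 26.4 on day 25 and 10.6 to 14.4 on day 10. All 4 arrays of a day lay on 1 slide and were scanned together, so the day and the slide cannot be told apart in any comparison below.

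The 2 bleeds differed across much of the transcriptome. Of 15178 genes tested with limma, 5240 passed an adjusted p of 0.05 (34.5%), 2972 of them higher (19.6%) and 2268 lower (14.9%) on day 25. Counts of called genes in the lists below are to be read against these shares. Both shares were larger among bright genes. They were 3.23% and 2.9% in the dimmest 10% of genes and 36.6% and 33.1% in the brightest 10%. The large changes were nearly all decreases, since 392 called genes were at least 2-fold lower and 1 was at least 2-fold higher. The direction of the calls depended on how each array was centred. Higher genes made up 56.7% of the calls after loess, 71.1% with the Cy5 channel alone, 46.4% with log ratios scaled between arrays, 17.1% with negative control spots as background and 98.3% with each array centred on its median instead, called median centring below. The median of all genes was 0.03 after loess and 0.46 under median centring. Under median centring it rose with brightness, from -0.02 in the dimmest 10% of genes to 1.41 in the brightest 10%. After loess these medians were 0.00 and 0.12. The value of 0.46 is therefore no common baseline for genes of differing brightness under that setting.

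The spike-in probes, which bind RNA added to both dyes at labelling and no blood RNA, moved in the same direction as the genes with large decreases. All 10 were lower on day 25, by a median change of -1.13 after loess (range -1.21 to -0.84), against 0.03 for all genes. Under median centring their median change was 0.12, against 0.46 for all genes. The spike-in probes had a brightness of 8.75 to 13.57. Under median centring genes of brightness 8.70 to 9.19 had a median change of 1.12 and the brightest 10% of genes one of 1.41. In the Cy5 channel alone, which uses no ratio to the reference and in which large decreases are also given below, all 10 were lower too, by a median of -0.50 (range -0.91 to -0.17), against 0.05 for all genes. Their part in the decreases described below was not tested.

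**Figure D1:**
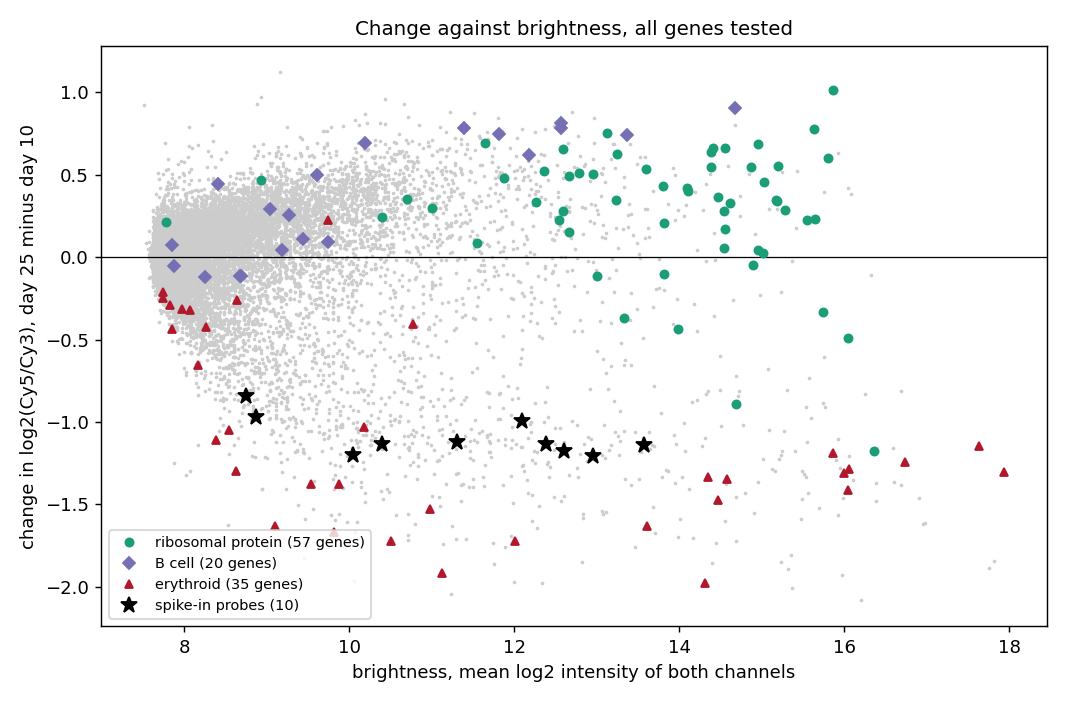
Change in log2(Cy5/Cy3), day 25 minus day 10 (vertical axis), against brightness, the mean log2 intensity of both channels (horizontal axis), for all genes tested (grey points), with erythroid genes as red triangles, B cell genes as purple diamonds, ribosomal protein genes as green circles and spike-in probes as black stars. Erythroid genes lie down to -1.98, the stars between -1.21 and -0.84, and most ribosomal protein and B cell genes above 0.

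Red cell transcripts were lower on day 25. Of the 35 erythroid genes tested, 32 fell and 0 rose, with a median change of -1.28, against 0.03 over all genes. The levels of 31 of the 35 did not overlap between the days, against 27.6% of all genes. Averaged over the list, the level lay between -0.53 and -0.16 on the day 25 arrays and between 0.63 and 0.81 on the day 10 arrays, and the median change was below 0 in each of the 4 mice, from -1.38 to -0.89. The list median was 0.15 below that of the spike-in probes. In the Cy5 channel alone the list median was -0.39 and 23 of 35 genes were lower, where 9.17% of all genes were. That median was smaller in size than the -0.50 of the spike-in probes. Under median centring the list median was -0.17, with 2 genes lower and 1 higher, where 0.863% and 51.3% of all genes were. With each member set against the median of genes as bright, the list median was smaller in size after loess, at -0.56. On that measure it was -0.58 under median centring and -0.58 in Cy5 alone.

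Slc4a1, the band 3 anion exchanger that anchors the red cell skeleton to its membrane, had levels of -1.35, -0.91, -1.25 and -0.88 on day 25, against 0.97, 1.04, 1.07 and 0.44 on day 10 in mice 305, 310, 315 and 320. Every day 25 value lay below 0 and every day 10 value above it. The change was -1.98 (SE 0.27, adjusted p = 8.84e-05), or 3.94-fold lower, and -1.16 in the Cy5 channel alone. Eraf, the array's name for the chaperone that holds free alpha globin, had levels of -0.97, -0.39, -1.0 and -0.75 on day 25, against 0.67, 1.15, 0.97 and 0.98 on day 10, which again left a gap around 0 between the days. It changed by -1.72 (SE 0.19, adjusted p = 3.92e-05), and by -1.42 in Cy5 alone. Trim10, needed in mice for the last steps of red cell differentiation, had -0.90, 0.05, -0.79 and -0.41 on day 25, against 1.06, 1.48, 1.61 and 1.48 on day 10, with mouse 310 the highest on day 25, near 0. Its change was -1.92 (SE 0.25, adjusted p = 7.01e-05), and -1.90 in Cy5 alone. Car2, a carbonic anhydrase, and Xpo7, a nuclear export receptor abundant in late erythroblasts, changed by -1.63 (SE 0.22, adjusted p = 8.01e-05) and -1.37 (SE 0.18, adjusted p = 7.01e-05), with all 4 mice lower for both, and by -1.03 and -1.29 in Cy5 alone.

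Other genes of the red cell membrane, named here after their values were seen, were lower by amounts that differed between genes. Rhd, the Rh antigen, averaged -0.42 ± 0.26 on day 25 and 1.25 ± 0.32 on day 10 (SD, n = 4 each), a change of -1.67 (SE 0.23, adjusted p = 8.49e-05). Epb42 (protein 4.2) and Ank1 (ankyrin) changed by -1.63 (SE 0.25, adjusted p = 0.000193) and -1.53 (SE 0.21, adjusted p = 8.69e-05). In Cy5 alone these 3 genes changed by -1.49, -1.64 and -1.32, all past the threshold. Rhag, Add2 and Ermap, also of the membrane, fell by less after loess, with changes of -0.66, -0.44 and -0.21, and Gypc did not pass (-0.26, adjusted p = 0.0611). The globin genes, among the brightest on the arrays, differed between the 2 readings. After loess Hbb-bt (beta globin) had -0.41, -0.23, 0.01 and 0.66 on day 25, against 1.81, 1.0, 1.21 and 1.24 on day 10 and changed by -1.31 (SE 0.26, adjusted p = 0.00156), and Hba-a1 (alpha globin) changed by -1.14 (SE 0.36, adjusted p = 0.0239), a call that ended without the day 25 or the day 10 array of mouse 305 (adjusted p up to 0.0803). In Cy5 alone the changes were 0.13 and 0.29, neither past the threshold (adjusted p = 0.0503 and 0.586). Hbb-bt was saturated on 1 day 25 array and 2 day 10 arrays, and probes of globin genes can bind near-identical copies. The erythroid transcription factors Gata1 and Klf1 changed less, by -0.43 (SE 0.08, adjusted p = 0.0011) and -0.25 (SE 0.06, adjusted p = 0.0041), and by 0.23 and -0.17 under median centring.

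**Figure D2:**
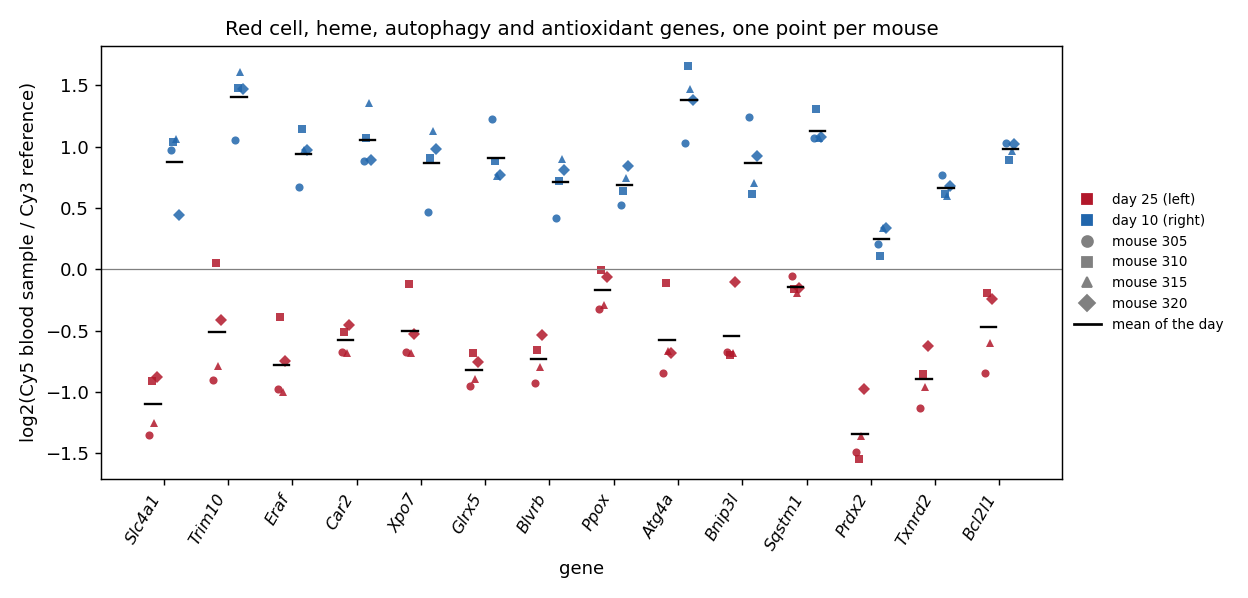
Level in log2(Cy5 blood sample / Cy3 reference) (vertical axis) of 14 genes of red cells, heme synthesis, autophagy and antioxidant defence (horizontal axis), with day 25 in red at the left of each pair and day 10 in blue at the right, a symbol per mouse and a black bar at the mean of the day. For every gene shown the 4 red points lie below the 4 blue points, as for Slc4a1 with means of -1.10 and 0.88.

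The promoters of red cell genes are bound by GATA1 and by KLF1, as background. To show what such a promoter looks like, the 250 bases before the annotated start of the 2 erythroid genes with the largest decreases that have an entry in the RefSeq promoter table (GRCm38.p6) are given 5′ to 3′ on the gene's strand, with GATA motifs (AGATAA or AGATAG or TGATAA or TGATAG, on either strand) in capitals.
Trim10 (chr17:36869324-36869573, + strand): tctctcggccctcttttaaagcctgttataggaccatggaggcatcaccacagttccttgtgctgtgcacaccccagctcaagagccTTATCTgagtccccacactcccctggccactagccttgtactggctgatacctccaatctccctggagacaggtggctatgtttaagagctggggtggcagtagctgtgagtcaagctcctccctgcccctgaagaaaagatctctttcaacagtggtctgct
Rhd (chr4:134864286-134864535, + strand): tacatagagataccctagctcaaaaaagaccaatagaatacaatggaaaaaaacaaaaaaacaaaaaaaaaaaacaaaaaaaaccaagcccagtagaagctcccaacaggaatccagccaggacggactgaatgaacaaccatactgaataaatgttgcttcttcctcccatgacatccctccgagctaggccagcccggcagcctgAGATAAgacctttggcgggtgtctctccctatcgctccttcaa
Each holds 1 GATA motif, starting 163 bases before the start of Trim10, on the opposite strand (TTATCT as printed), and 43 bases before that of Rhd, and neither holds the KLF-type motif CCNCNCCC. Of the 32 erythroid genes that were lower, 19 had a window, and 10 of the 19 held a GATA motif (52.6%), against 26.5% of the 32851 windows in the table. The KLF-type motif, also searched on both strands, was in 10 of the 19 (52.6%) and in 45.9% of all windows. A match of letters is not a measured binding site.

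Genes of heme synthesis and iron handling fell with the red cell genes. Heme is built in erythroid mitochondria and the cytosol by a chain of enzymes, and ferritin stores the iron not used. Of 27 genes tested 17 were lower and 1 higher (2 without the day 25 array of mouse 310 or the day 10 array of mouse 310 and 3 without the day 25 array of mouse 320), with a median change of -0.37 after loess and -0.14 in Cy5 alone (10 lower, 4 higher). Under median centring the median was 0.12, which is -0.34 relative to all genes. Glrx5, a glutaredoxin of iron-sulfur cluster assembly, had -0.95, -0.69, -0.89 and -0.76 on day 25, against 1.23, 0.89, 0.76 and 0.77 on day 10, with no overlap between the days. It changed by -1.73 (SE 0.19, adjusted p = 3.92e-05), or 3.33-fold lower, and by -0.82 in Cy5 alone. Blvrb, which reduces biliverdin, and Ppox, the enzyme before ferrochelatase, changed by -1.44 (SE 0.18, adjusted p = 5.52e-05) and -0.86 (SE 0.13, adjusted p = 0.000141), and by -0.17 and -0.69 in Cy5 alone, where Blvrb did not pass the threshold. Under median centring Ppox changed by 0.25 and did not pass. The ferritin genes Ftl1 and Fth1, named after their values were seen, changed by -1.23 (SE 0.22, adjusted p = 0.000589) and -0.81 (SE 0.23, adjusted p = 0.0134) after loess and by -0.45 and 0.66 in Cy5 alone, where neither passed.

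Autophagy clears mitochondria from maturing red cells, and 11 of the 22 genes tested of its list fell. The other 11 did not, among them Atg7, Atg5, Ulk1 and Bnip3, named after their values were seen, with 0.06, 0.14, 0.17 and 0.14, none past the threshold. The 1 gene that rose was Fundc1 (0.16, adjusted p = 0.0487), and the count of higher genes was 0 without the day 10 array of mouse 305 or 315, 2 without the day 25 array of mouse 305, 3 without the day 25 array of mouse 310 and 4 without the day 10 array of mouse 310. The list had a median change of -0.51 after loess and -0.04 in Cy5 alone (8 lower, 1 higher), and of 0.27 under median centring, which is -0.19 relative to all genes. Atg4a, a protease that processes the LC3 and GABARAP proteins, had -0.84, -0.11, -0.67 and -0.68 on day 25, against 1.03, 1.66, 1.47 and 1.38 on day 10, with all day 25 values below 0 and all day 10 values above 1. It changed by -1.96 (SE 0.24, adjusted p = 4.41e-05), or 3.9-fold lower, and by -2.13 in Cy5 alone. Bnip3l, the receptor that marks mitochondria for removal from reticulocytes, changed by -1.41 (SE 0.22, adjusted p = 0.000237), but by -0.23 in Cy5 alone (adjusted p = 0.485). Sqstm1, an autophagy cargo receptor, averaged -0.14 ± 0.06 on day 25 and 1.13 ± 0.12 on day 10 (SD, n = 4 each) and changed by -1.27 (SE 0.19, adjusted p = 0.000171), and by -0.85 in Cy5 alone. Map1lc3b, an LC3 gene named after its values were seen, changed by -1.30 (SE 0.20, adjusted p = 0.00022) and by -0.59 in Cy5 alone, while its other probe changed by -0.01. The LC3 relative Gabarap and the conjugation factor Atg12 changed by -0.96 (SE 0.15, adjusted p = 0.00022) and -0.91 (SE 0.14, adjusted p = 0.00019), but by 0.26 and 0.36 under median centring.

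The antioxidant enzymes that passed the threshold were all lower. Of 32 genes tested 12 were lower and 0 higher (1 without the day 25 array of mouse 310), while the list median was -0.05, against 0.03 for all genes (0.93 against 0.46 under median centring). With each member set against the median of genes as bright, the list had a median of -0.15 after loess and -0.17 under median centring. Among the lower ones were Prdx2, the peroxiredoxin that is abundant in red cells, and Txnrd2, the mitochondrial thioredoxin reductase. Prdx2 had -1.49, -1.55, -1.36 and -0.97 on day 25, against 0.21, 0.11, 0.34 and 0.34 on day 10, and its 3 probes changed by -1.59, -1.25 and -1.46. Txnrd2 changed by -1.56 (SE 0.17, adjusted p = 3.92e-05), and the quinone reductase Nqo1 by -0.72 (SE 0.11, adjusted p = 0.000162). In Cy5 alone Prdx2, Txnrd2 and Nqo1 changed by -1.03, -1.02 and -1.03, all past the threshold. Catalase (Cat) and Gpx1, a glutathione peroxidase, both named after their values were seen, changed by -1.22 (SE 0.22, adjusted p = 0.000563) and -1.61 (SE 0.28, adjusted p = 0.000538), and by -0.59 and -0.06 in Cy5 alone, where only Cat passed. Under median centring Cat changed by 0.05. In the BCL2 family 5 of 14 genes were higher and 2 lower, and the count of higher genes was 2 without the day 25 array of mouse 315 or the day 10 array of mouse 305 and 3 without the day 25 array of mouse 305 or 320 or the day 10 array of mouse 315. Bcl2l1, the survival factor of late erythroid cells, changed by -1.45 (SE 0.19, adjusted p = 5.53e-05) and by -1.24 in Cy5 alone, and Mcl1, a survival factor of white cells, by 0.55 (SE 0.10, adjusted p = 0.000637).

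After loess the ubiquitin system moved in 2 directions. Of 40 genes tested 15 were higher and 13 lower, where 19.6% and 14.9% of all genes were. In Cy5 alone 15 were higher and 8 lower, and under median centring 25 were higher and 0 lower. All 15 genes higher after loess were proteasome subunits. The 13 lower ones were mostly ubiquitin genes and ubiquitin-conjugating enzymes, with the subunits Psmb7, Psmd4 and Psmd8 and the inhibitor Psmf1, named after their values were seen, among them. The largest decreases included Ube2l6, a conjugating enzyme for ISG15 and ubiquitin (change -1.48, SE 0.20, adjusted p = 8.01e-05), Ube2h (change -1.35, SE 0.20, adjusted p = 0.000177) and, named after its values were seen, the polyubiquitin gene Ubb (change -1.36, SE 0.23, adjusted p = 0.000363). In Cy5 alone Ube2l6 and Ube2h stayed lower (-0.84 and -0.87), whereas Ubb did not pass (-0.07). Oaz1, antizyme, which targets ornithine decarboxylase to the proteasome and is abundant in reticulocytes, had -0.33, -0.51, -0.73 and -0.26 on day 25, against 1.37, 0.50, 0.87 and 0.91 on day 10. Its change was -1.37 (SE 0.21, adjusted p = 0.000195) after loess and -0.02 in Cy5 alone (adjusted p = 0.955), and the days did not overlap after loess.

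A small group of interferon-stimulated genes fell by large amounts while most of the list did not pass the threshold. These genes are switched on through an interferon response element in their promoters. Of 35 genes tested 10 were lower, 4 higher and 21 not called, with a median change of 0.04, about that of all genes. Without the day 25 array of mouse 305 or the day 10 array of mouse 320 the count of lower genes was 6. Rsad2 (viperin) had -0.88, -0.55, -0.44 and -0.13 on day 25, against 1.80, 1.26, 1.28 and 1.07 on day 10, and its 3 probes changed by -1.85, -1.14 and -1.11 (adjusted p = 0.000315 for the first, which changed by -0.63 in Cy5 alone). Isg15, a ubiquitin-like modifier, had -1.41, -0.54, -0.73 and -0.62 on day 25, against 0.80, 0.86, 1.14 and 0.73 on day 10, with every mouse below 0 on day 25 and above it on day 10. It changed by -1.71 (SE 0.24, adjusted p = 0.000102), or 3.27-fold lower, and by -1.49 in Cy5 alone. Irf7, a transcription factor of the interferon response, changed by -1.59 (SE 0.24, adjusted p = 0.000182), and by -1.45 in Cy5 alone. Ifitm3, a membrane restriction factor, changed by -0.82 (SE 0.09, adjusted p = 3.92e-05), but by -0.08 in Cy5 alone and 0.46 under median centring, neither past the threshold. Genes named after their values were seen include Oasl2, which changed by -1.26 (SE 0.27, adjusted p = 0.00179) and by -1.04 in Cy5 alone, and Parp14 and Ifi27l2a, which were higher by 0.45 (SE 0.09, adjusted p = 0.00134) and 0.70 (SE 0.16, adjusted p = 0.00301).

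Outside the list, 2 genes of the interferon-inducible p200 family were among the highest of all genes. Ifi211 had 0.43, 0.32, 0.44 and 0.37 on day 25, against -0.60, -0.42, -0.68 and -0.47 on day 10, and Ifi203 had 0.42, 0.24, 0.43 and 0.36 on day 25, against -0.41, -0.31, -0.69 and -0.40 on day 10. For both, all 4 mice were above 0 on day 25 and below it on day 10. They changed by 0.93 (SE 0.13, adjusted p = 8.01e-05) and 0.81 (SE 0.14, adjusted p = 0.000413). After loess, interferon-related genes thus changed in both directions. In Cy5 alone 6 of the 35 genes of the list were higher and 9 lower. Under median centring 17 were higher and 0 lower, where 51.3% and 0.863% of all genes were.

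The 250 bases before the starts of the 2 interferon-stimulated genes with the largest decreases are shown (RefSeq, GRCm38.p6). They were taken by the size of the decrease and not by their motifs. The motif of the interferon response element, GAAA and GAAA with 2 bases of any kind between them, is in capitals on either strand.
Rsad2 (chr12:26456453-26456702, - strand): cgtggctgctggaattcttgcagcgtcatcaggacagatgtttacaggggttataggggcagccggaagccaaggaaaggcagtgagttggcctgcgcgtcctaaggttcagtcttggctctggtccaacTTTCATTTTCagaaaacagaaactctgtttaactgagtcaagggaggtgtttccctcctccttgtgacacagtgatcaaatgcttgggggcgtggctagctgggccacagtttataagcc
Isg15 (chr4:156200819-156201068, - strand): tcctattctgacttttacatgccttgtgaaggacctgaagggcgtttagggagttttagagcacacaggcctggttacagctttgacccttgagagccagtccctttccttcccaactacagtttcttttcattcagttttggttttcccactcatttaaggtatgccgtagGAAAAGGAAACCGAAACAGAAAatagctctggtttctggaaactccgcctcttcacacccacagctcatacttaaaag
Rsad2 holds 1 match, starting 120 bases before the gene's start. Isg15 holds 3 overlapping matches, starting 78, 72 and 66 bases before its start. Of the lower genes of the list 5 of 9 with a window held the motif (55.6%), of the genes not called 8 of 14 (57.1%) and of the higher ones 0 of 2, against 2.98% of all 32851 windows. Holding the motif was about as frequent among the lower genes as among those not called.

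After loess cell cycle genes moved in both directions. Of 29 tested 11 were lower and 6 higher, with a median of -0.06. In Cy5 alone 11 were lower and 5 higher, and under median centring 0 were lower and 11 higher. Ube2c, which drives mitotic exit, had -1.69, -1.16, -1.44 and -0.76 on day 25, against 0.42, 0.32, 0.51 and 0.47 on day 10, and changed by -1.69 (SE 0.21, adjusted p = 5.33e-05). Nusap1, a spindle protein, Mki67, the Ki-67 antigen, and Ccna2, cyclin A2, changed by -1.34 (SE 0.20, adjusted p = 0.00015), -1.41 (SE 0.22, adjusted p = 0.00019) and -1.36 (SE 0.21, adjusted p = 0.00022), with no overlap between the days. In Cy5 alone the 4 genes changed by -1.40, -1.38, -1.12 and -1.38, all past the threshold. The 6 higher genes, named after their values were seen, were Pcna, Rrm1, Mcm3, Mcm4, Mcm6 and Mcm7, which serve DNA replication, with changes from 0.13 to 0.40. Rrm2 and Tk1, which supply nucleotides for DNA synthesis, were lower (-0.33 and -0.19). The mitotic genes Plk1, Cdc20, Aurka and Ccnb1 were among the 12 genes that did not pass, with 0.01, 0.01, 0.05 and 0.14. These 6 genes were also named after their values were seen.

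**Figure D3:**
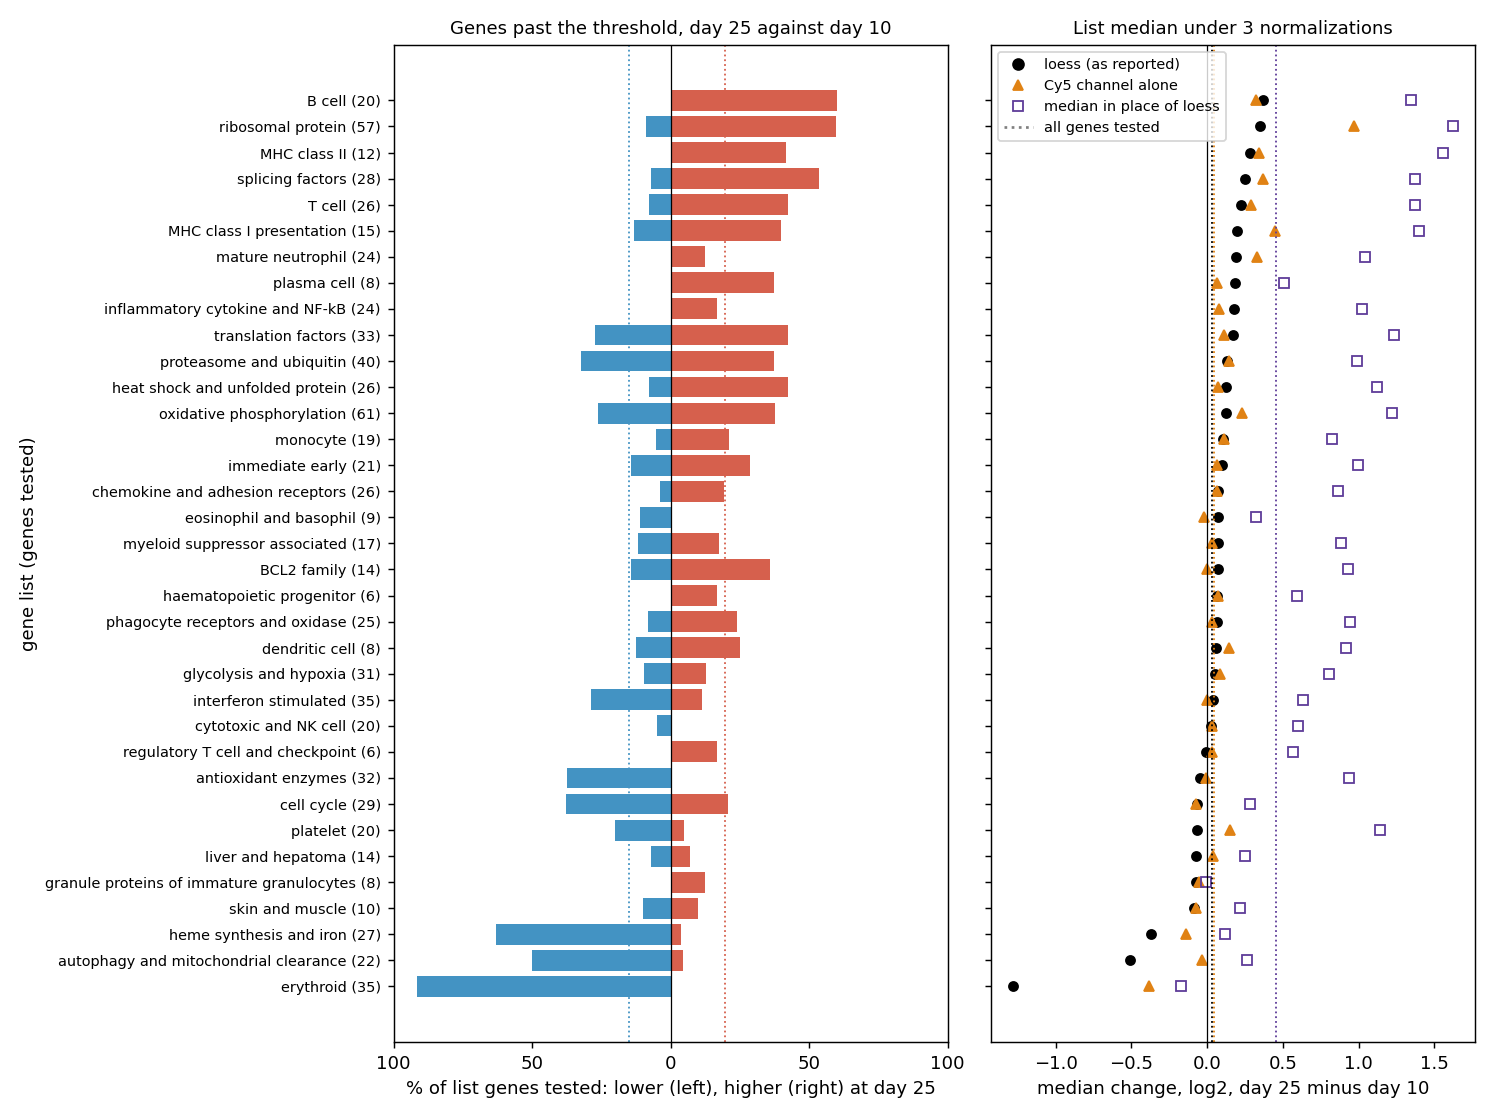
Left, the percentage of each list's tested genes (number in brackets) that were lower (blue, leftward) or higher (red, rightward) on day 25 than on day 10, with dotted lines at the values over all genes (14.9% and 19.6%). Right, the median change of each list after loess (black circles), in the Cy5 channel alone (orange triangles) and under median centring (open squares), with dotted lines at the medians of all genes. The erythroid list stands lowest under all 3, at -1.28, -0.39 and -0.17.

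B cell transcripts were higher on day 25. Of 20 genes tested 12 rose and 0 fell (1 without the day 25 array of mouse 305), with a median change of 0.37, and the median was above 0 in each of the 4 mice (0.21 to 0.68). In Cy5 alone 11 were higher, with a median of 0.32. Ms4a1, the CD20 antigen, had 0.14, -0.10, -0.20 and -0.10 on day 25, against -0.69, -0.99, -0.94 and -0.79 on day 10, without overlap. It changed by 0.79 (SE 0.17, adjusted p = 0.00178), or 1.72-fold higher, and its other probe by 0.64. Pou2af1, a coactivator of immunoglobulin genes, had 0.22, -0.02, 0.06 and 0.09 on day 25, against -0.50, -0.70, -0.87 and -0.59 on day 10, and changed by 0.75 (SE 0.11, adjusted p = 0.00014). Ighm, the heavy chain of IgM, and Blnk, an adaptor of the B cell receptor, changed by 0.91 (SE 0.22, adjusted p = 0.00506) and 0.82 (SE 0.18, adjusted p = 0.00221), with mouse 305 the highest on day 25 for both. Ighm probes can bind near-identical copies, and its other probe changed by 0.30. Ly86, a partner of a Toll-like receptor relative on B cells, and Fcrla, an Fc receptor-like protein, changed by 0.79 (SE 0.12, adjusted p = 0.000201) and 0.69 (SE 0.11, adjusted p = 0.000271). Cd79b, a signalling chain of the B cell receptor named after its values were seen, changed by 0.74 (SE 0.20, adjusted p = 0.00926). Its partner Cd79a did not pass, with -0.12 (SE 0.07, adjusted p = 0.201). Cxcr5, the receptor that guides B cells to follicles, changed by 0.71 (SE 0.12, adjusted p = 0.000453).

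T cell genes leaned the same way. Of 26 tested 11 were higher and 2 lower, with a median of 0.23 that was above 0 in mice 305, 310 and 320 and at 0.00 in mouse 315. In Cy5 alone 14 were higher and 1 lower. After loess 42.3% of the list was higher, about the share among genes as bright. Of all genes with brightness 9.19 to 10.13, around the list's median of 9.57, 41.6% were higher, with a median change of 0.17. With each member set against the median of genes as bright, the T cell list had a median of 0.04 and the B cell list 0.24. Cd8b1, a chain of the CD8 coreceptor, had 0.41, 0.46, 0.16 and 0.33 on day 25, against -0.12, -0.14, -0.15 and -0.47 on day 10, with every mouse above 0 on day 25 and below 0 on day 10. It changed by 0.56 (SE 0.13, adjusted p = 0.00364), and its other probe by 0.02. Il7r, the interleukin-7 receptor, Txk, a kinase of T cell receptor signalling, and, named after its values were seen, Cd3d, a chain of the CD3 complex, changed by 0.54 (SE 0.13, adjusted p = 0.00427), 0.39 (SE 0.09, adjusted p = 0.00327) and 0.39 (SE 0.09, adjusted p = 0.00445). The other probes of Il7r and Txk changed by 0.03 and 0.14. Cd8a did not pass (change 0.19, SE 0.08, adjusted p = 0.0834), nor did Cd3e, whose spread over the 20 arrays was wide (change -0.48, SE 0.77, adjusted p = 0.656). The lower genes were Zap70 (-0.24) and Cd27 (-0.18), named after their values were seen, and leaving out 6 of the 8 arrays in turn, all but the day 25 arrays of mice 305 and 310, left 1 lower gene in the list. S1pr1, which lets lymphocytes leave lymphoid organs, changed by 0.62 (SE 0.11, adjusted p = 0.000685).

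Natural killer and cytotoxic genes gave 1 call. Of 20 tested 0 were higher and 1 was lower, with a median of 0.03, and the 1 call, Ctsw (cathepsin W, change -0.27, SE 0.10, adjusted p = 0.0401), ended without any of 7 of the arrays, all but the day 10 array of mouse 320. Nkg7, Gzma and Ncr1 had changes of -0.01 (SE 0.23, adjusted p = 0.983), 0.21 (SE 0.42, adjusted p = 0.728) and 0.06 (SE 0.11, adjusted p = 0.716). Gzma, granzyme A, was 0.62, 0.24, 0.54 and -1.16 on day 25 and 0.08, 0.34, 0.13 and -1.13 on day 10, so that mouse 320 was low on both days and the days overlapped. Whether the change differed between these genes and the T cell genes was not tested.

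Antigen presentation genes were higher or not past the threshold in most cases. Of 12 MHC class II genes 5 were higher and 0 lower, a count that was 3 without the day 25 array of mouse 305, 315 or 320 and 2 without the day 10 array of mouse 310, 315 or 320. The 5 are 41.7%, where 36.6% of the brightest 10% of all genes were higher. With each member set against the median of genes as bright, the class II list had a median of 0.07 and the class I list 0.10. H2-Eb1, a class II beta chain, had 0.70, 0.41, 0.41 and 0.41 on day 25, against 0.16, -0.11, 0.05 and 0.01 on day 10, and changed by 0.45 (SE 0.10, adjusted p = 0.00302). H2-DMb1, which helps load class II peptides, changed by 0.54 (SE 0.12, adjusted p = 0.00335), and its other probe by 0.08. The invariant chain Cd74 and the alpha chain H2-Aa changed by 0.35 (SE 0.12, adjusted p = 0.0265) and 0.34 (SE 0.12, adjusted p = 0.0397), calls that ended without 5 and 4 of the arrays, each among the day 25 arrays of mice 305, 315 and 320 and the day 10 arrays of mice 310, 315 and 320. Of 15 class I presentation genes 6 were higher and 2 lower (1 without the day 25 array of mouse 305 or the day 10 array of mouse 315 or 320). Psme2, a proteasome activator subunit, had 0.10, 0.09, 0.17 and 0.19 on day 25, against -0.62, -0.53, -0.39 and -0.40 on day 10, without overlap, and changed by 0.62 (SE 0.09, adjusted p = 0.000103). The immunoproteasome subunits Psmb8 and Psmb10 changed by 0.55 (SE 0.14, adjusted p = 0.0049) and 0.62 (SE 0.15, adjusted p = 0.00469). Tap2, the peptide transporter, was among the lower ones with -0.39 (SE 0.08, adjusted p = 0.00143), but -0.04 in Cy5 alone and 0.19 under median centring, neither past the threshold. H2 probes can bind near-identical copies.

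Ribosomal protein genes rose as a group with exceptions. Of 57 tested 34 were higher and 5 lower (3 without the day 25 array of mouse 315), with a median change of 0.35 after loess and 0.97 in Cy5 alone, where 49 were higher and 0 lower. They are bright, with a median brightness of 14.11. The brightest 10% of all genes began at 10.13 and had a median of 0.12, with 36.6% higher and 33.1% lower. With each member set against the median of genes as bright, the ribosomal list had a median of 0.72 after loess. On that measure it was 0.73 under median centring and 0.47 in Cy5 alone. Rps27 had 0.96, 0.35, 0.59 and 0.55 on day 25, against -0.02, -0.64, -0.46 and -0.48 on day 10, and each mouse was higher on day 25 than on day 10. It changed by 1.01 (SE 0.18, adjusted p = 0.000519), or 2.02-fold higher, the largest increase among genes with a symbol that moved the same way in every mouse. Rpsa, Rpl36, Rpl22 and Rpl30 changed by 0.70, 0.66, 0.75 and 0.63 (SE 0.08 to 0.11, adjusted p at most 0.000182), and no day 25 value of these 4 overlapped a day 10 value. The other probes of Rpsa, Rpl36 and Rpl22 changed by 0.108, 0.625 and 0.238. Rpl41 and Rplp0, named after their values were seen, went the other way with -1.18 (SE 0.19, adjusted p = 0.00022) and -0.89 (SE 0.16, adjusted p = 0.000694), and did not pass in Cy5 alone (0.33 and -0.13). Ribosomal protein probes can bind processed pseudogenes.

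**Figure D4:**
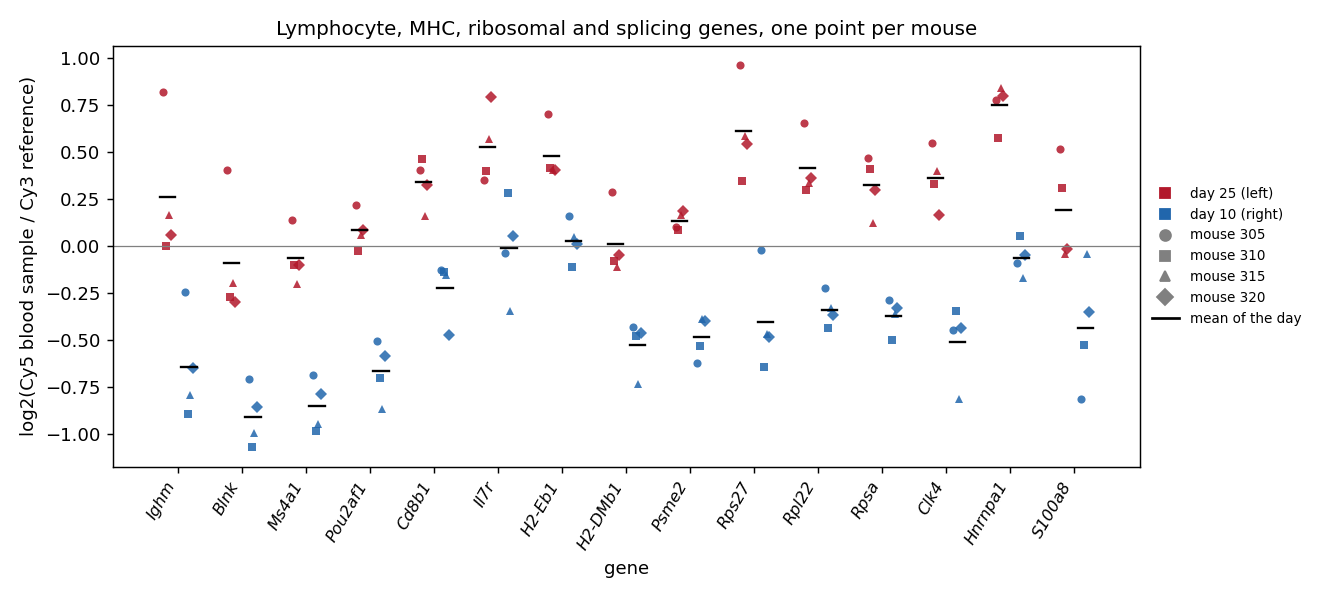
Level in log2(Cy5 blood sample / Cy3 reference) (vertical axis) of 15 lymphocyte, MHC, ribosomal, splicing and myeloid genes (horizontal axis), with day 25 in red at the left of each pair and day 10 in blue at the right, a symbol per mouse and a black bar at the mean of the day. The red means lie above the blue means for all 15 genes, as for Rps27 with 0.61 and -0.40, and mouse 305 (circles) is the highest red point for Ighm, Blnk and Ms4a1.

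More genes of RNA splicing rose than fell. Of 28 tested 15 were higher and 2 lower (1 without the day 25 array of mouse 315 or the day 10 array of mouse 315), with a median of 0.25, and 9 were higher without the day 10 array of mouse 315. Clk4, a kinase of splicing factors, had 0.55, 0.33, 0.40 and 0.17 on day 25, against -0.44, -0.34, -0.81 and -0.44 on day 10, without overlap, and changed by 0.87 (SE 0.10, adjusted p = 3.92e-05). Its other probes changed by 0.19, 0.33 and -0.40, so the probes of this gene disagreed. Hnrnpa1, which binds nascent transcripts, changed by 0.81 (SE 0.10, adjusted p = 3.92e-05), and its other probes by 0.40 and 0.07. Son and Srsf7, a scaffold and an SR protein of the spliceosome, changed by 0.72 (SE 0.11, adjusted p = 2e-04) and 0.69 (SE 0.11, adjusted p = 0.00022). Of 26 heat shock and unfolded protein genes 11 were higher and 2 lower, among them the chaperones Hsp90aa1 (change 0.42, SE 0.09, adjusted p = 0.00199) and Hspe1 (change 0.43, SE 0.09, adjusted p = 0.00202). The 11 are 42.3%, about the share among genes as bright. Of all genes with brightness 9.19 to 10.13, around the list's median of 9.54, 41.6% were higher. With each member set against the median of genes as bright, the heat shock list had a median of 0.12 and the splicing list 0.13.

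After loess translation factors and respiratory chain genes moved both ways. Of 33 translation factors 14 were higher (42.4%) and 9 lower (27.3%). In Cy5 alone 13 were higher and 3 lower, and under median centring 22 were higher and 0 lower. Eif4a2, an RNA helicase of initiation, and Eif3e, a subunit of an initiation complex, changed by 0.65 (SE 0.07, adjusted p = 3.92e-05) and 0.61 (SE 0.09, adjusted p = 0.000143), and Eif5 by -1.20 (SE 0.19, adjusted p = 0.000206) and by -0.36 in Cy5 alone, although its 2 other probes changed by -1.28 and 0.00. Of 61 oxidative phosphorylation genes 23 were higher and 16 lower, and 15 were higher without the day 25 array of mouse 305 or 315 or the day 10 array of mouse 305. In Cy5 alone 27 were higher and 0 lower, and under median centring 43 were higher and 0 lower. Cox7a2 and Cox7b, small subunits of cytochrome oxidase, changed by -0.98 (SE 0.14, adjusted p = 9.57e-05) and -0.82 (SE 0.14, adjusted p = 0.000335) after loess, by -0.25 and -0.53 in Cy5 alone and by 0.31 and 0.46 under median centring, none of the last 4 past the threshold.

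Stress and signalling lists held single genes with clear changes. Of 24 genes of inflammatory cytokines and NF-kB 4 were higher (16.7%, against 19.6% of all genes) and 0 lower. They were Birc3 (change 0.54, SE 0.08, adjusted p = 0.000223, other probe 0.06), Nfkbia (change 0.49, SE 0.13, adjusted p = 0.00766), Casp1 (change 0.37, SE 0.12, adjusted p = 0.0219) and Tnfaip3 (change 0.22, SE 0.08, adjusted p = 0.0425, adjusted p = 0.0588 with the mouse as a block). The count was 2 without the day 25 array of mouse 305 or 315 or the day 10 array of mouse 305 and 10 without the day 25 array of mouse 310. Of 21 immediate early genes 6 were higher and 3 lower. Ier5 had 0.20, -0.12, -0.11 and -0.14 on day 25, against -0.84, -0.85, -0.82 and -0.78 on day 10, without overlap, and changed by 0.78 (SE 0.11, adjusted p = 8.57e-05), while the AP-1 member Jund changed by -0.80 (SE 0.19, adjusted p = 0.00369) and Junb by 0.42 (SE 0.11, adjusted p = 0.00853). Myc changed by 0.29 (SE 0.07, adjusted p = 0.00326). Of 31 genes of glycolysis and hypoxia 4 were higher and 3 lower, which for the higher ones is 12.9%, against 19.6% of all genes, and the count of higher genes was 7 without the day 25 array of mouse 320 and 9 without the day 25 array of mouse 310. They include Gpi1 (change 0.50, SE 0.08, adjusted p = 0.000287), Ldha (change 0.44, SE 0.09, adjusted p = 0.00209), the lactate carrier Slc16a1 (change -0.44, SE 0.09, adjusted p = 0.00147) and Car9 (change -0.25, SE 0.06, adjusted p = 0.00443). Hsf1, the heat shock transcription factor, changed by -0.66 (SE 0.14, adjusted p = 0.00214) after loess but by 0.94 in Cy5 alone, past the threshold with the opposite sign.

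The smaller lists of white cells gave few calls. Of 8 plasma cell genes 3 were higher and 0 lower, namely Mzb1 (change 0.26, SE 0.06, adjusted p = 0.00309), the joining chain Jchain (change 0.26, SE 0.09, adjusted p = 0.0271) and Fkbp11 (change 0.13, SE 0.05, adjusted p = 0.0431, adjusted p = 0.0579 with the mouse as a block). The count was 1 without the day 25 array of mouse 315 or the day 10 array of mouse 305 or 310. Of 8 dendritic cell genes 2 were higher (1 without the day 25 array of mouse 305 or the day 10 array of mouse 315 or 320) and 1 lower, and the lower one, Zbtb46 (change -1.19, SE 0.21, adjusted p = 0.000436), was at -0.01 in Cy5 alone. Of 9 eosinophil and basophil genes 1 was lower, Ms4a2 (change -0.33, SE 0.11, adjusted p = 0.0309), and 0 were higher. The count of lower genes was 0 without the day 25 array of mouse 305 or 310 or the day 10 array of mouse 305 or 320 and 2 without the day 25 array of mouse 320 or the day 10 array of mouse 310, and that of higher genes 1 without the day 25 array of mouse 320 and 2 without the day 25 array of mouse 310. Of 6 genes of regulatory T cells and checkpoints 1 was higher, Ikzf2 (change 0.24, SE 0.09, adjusted p = 0.0488, adjusted p = 0.0609 with the mouse as a block), and the count was 0 without the day 25 array of mouse 315 or 320 or the day 10 array of mouse 305, 310, 315 or 320. Of lower genes the same list held 0, but 1 without the day 25 array of mouse 320 or the day 10 array of mouse 310. Of 6 haematopoietic progenitor genes 1 was higher, Myb (change 0.27, SE 0.08, adjusted p = 0.0111, other probes 0.06 and 0.09). Of 26 chemokine and adhesion receptors 5 were higher (19.2%, against 19.6% of all genes) and 1 lower (0 without the day 25 array of mouse 305, 315 or 320 or the day 10 array of mouse 315 or 320 and 3 without the day 25 array of mouse 310). Of 25 phagocyte receptors and oxidase subunits 6 were higher (3 without the day 25 array of mouse 305 or the day 10 array of mouse 305) and 2 lower (1 without the day 25 array of mouse 305, 315 or 320 or the day 10 array of mouse 315 or 320), the oxidase subunits Ncf4 and Cyba among them with 0.37 (SE 0.09, adjusted p = 0.00384) and -0.34 (SE 0.09, adjusted p = 0.00802).

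Of 24 neutrophil genes tested 3 were higher (12.5%, against 19.6% of all genes) and 0 lower. In Cy5 alone 8 were higher, where 22.5% of all genes were, and under median centring 16, where 51.3% were. After loess the list had a median of 0.19 that differed between mice, at 0.66 in mouse 305, 0.04 in mouse 310, -0.10 in mouse 315 and 0.09 in mouse 320. The count after loess was 1 without the day 25 array of mouse 305 or the day 10 array of mouse 305 or 310 and 5 without the day 25 array of mouse 320. S100a8, which forms calprotectin with S100a9, had 0.52, 0.31, -0.04 and -0.01 on day 25, against -0.81, -0.52, -0.04 and -0.35 on day 10, and mouse 315 had about the same level on both days. It changed by 0.63 (SE 0.22, adjusted p = 0.0382), a call that ended without the day 25 array of mouse 305 or 310 or the day 10 array of mouse 305, 310 or 320 (adjusted p up to 0.119). S100a9 had 0.62, -0.12, -0.20 and -0.19 on day 25, against -0.63, -0.62, -0.06 and -0.65 on day 10, with mouse 305 alone high on day 25 and mouse 315 alone high on day 10, and did not pass after loess (change 0.52, SE 0.27, adjusted p = 0.148), but did in Cy5 alone (1.36, adjusted p = 0.00411). Il1b, Mmp8 and Csf3r did not pass, with 0.38 (SE 0.26, adjusted p = 0.266), 0.16 (SE 0.17, adjusted p = 0.476) and 0.23 (SE 0.16, adjusted p = 0.288). Chil3, a chitinase-like protein of myeloid cells, was the 1 higher gene of 8 in the immature granulocyte list, with 0.88 (SE 0.22, adjusted p = 0.00539).

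Other myeloid and platelet genes gave few calls, several of which rested on single arrays. Of 19 monocyte genes 4 were higher and 1 lower (0 without the day 25 array of mouse 305, 310 or 315 or the day 10 array of mouse 315 or 320), and leaving out each of 6 arrays (day 25 mice 305 and 315, day 10 all 4 mice) left 0 or 1 of the 4. Csf1r, the receptor of monocyte growth factor, did not pass (change -0.16, SE 0.16, adjusted p = 0.465), and Lyz2, lysozyme of monocytes and neutrophils, named after its values were seen, changed by 0.64 (SE 0.24, adjusted p = 0.0483), a call that ended without any of those 6 arrays. The other probe of Lyz2 changed by 0.05. Stat3 and Tgfb1, of the list associated with suppressor myeloid cells (3 higher and 2 lower of 17, with 1 without the day 25 array of mouse 315 for the lower ones), changed by 0.52 (SE 0.10, adjusted p = 0.000949) and -0.54 (SE 0.12, adjusted p = 0.00247), and Tgfb1 by 0.41 under median centring. The other probe of Stat3 changed by -0.06. The adaptor Tyrobp, of the phagocyte receptors, had 0.83, 0.46, 0.62 and 0.23 on day 25, against -0.36, -0.15, -0.04 and -0.18 on day 10, and changed by 0.72 (SE 0.16, adjusted p = 0.00302). Of 20 platelet genes 4 were lower and 1 higher (0 without the day 25 array of mouse 315 or the day 10 array of mouse 305 or 310), and 2 were lower without the day 25 array of mouse 305 or the day 10 array of mouse 315. Itga2b, the integrin chain CD41, changed by -0.97 (SE 0.19, adjusted p = 0.00122), but by 0.32 under median centring and -0.50 in Cy5 alone, neither past the threshold. Selp (P-selectin) and the glycoprotein genes Gp5 and Gp1bb changed by -0.29 (SE 0.08, adjusted p = 0.00671), -0.55 (SE 0.16, adjusted p = 0.0131) and -0.50 (SE 0.17, adjusted p = 0.0265), and by 0.46, 0.65 and 0.69 under median centring. The platelet list median was -0.07 after loess and 0.15 in Cy5 alone. The platelet chemokines Pf4 and Ppbp did not pass, with 0.18 (SE 0.24, adjusted p = 0.592) and 0.29 (SE 0.24, adjusted p = 0.366).

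Few calls came from lists of the liver, the tumour line's tissue of origin, or of skin and muscle, which lie near a subcutaneous tumour. Of 14 liver and hepatoma genes 1 was higher and 1 lower. The count of higher genes was 2 without the day 25 array of mouse 305 and 3 without the day 25 array of mouse 310, and that of lower genes 0 without the day 25 array of mouse 305 or the day 10 array of mouse 320, 2 without the day 25 array of mouse 310 or 315 and 3 without the day 25 array of mouse 320 or the day 10 array of mouse 310. Gpc3, an oncofetal proteoglycan, had 0.64, 0.00, 0.74 and 0.56 on day 25, against -0.02, -0.03, 0.21 and -0.06 on day 10, and was well above background on 4 day 25 arrays and 2 day 10 arrays. It changed by 0.46 (SE 0.12, adjusted p = 0.00627), and mouse 310 had 0.00 on day 25 and -0.03 on day 10. Alb, albumin, was well above background on 1 day 25 array and 2 day 10 arrays and changed by -0.12 (SE 0.13, adjusted p = 0.473), and Afp, alpha-fetoprotein, changed by 0.13 (SE 0.06, adjusted p = 0.12). Neither passed. Of 10 skin and muscle genes 1 was higher (0 without the day 25 array of mouse 305 or 315 or the day 10 array of mouse 305, 315 or 320) and 1 lower (2 without the day 25 array of mouse 310). Krt1, a keratin, changed by -1.04 (SE 0.20, adjusted p = 0.00105), but by 0.20 under median centring and -0.07 in Cy5 alone, neither past the threshold.

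The 15 lowest genes with a symbol, taken from those lower in every mouse, were 3.54 to 4.22-fold lower. All 15 were lower on day 25 than on day 0 as well. Under median centring all 15 had the same direction and 0 passed in limma (0 also at an unadjusted p under 0.05), where 0.863% of all genes were lower. In Cy5 alone all 15 had the same direction and 8 passed the threshold. Among those 8 were Slc4a1, Apol11b, Atg4a, Trim10, Apol10b, Rsad2 and Mink1. The apolipoprotein L genes Apol11b and Apol10b, near-identical relatives that the probes may not separate, changed by -1.98 (SE 0.27, adjusted p = 8.01e-05) and -1.86 (SE 0.25, adjusted p = 7.6e-05), and by -1.76 and -1.18 in Cy5 alone. The other 7 were Cox17, Klf2, Prxl2a, Ptprz1, H1f10, Rusc1 and Lars2, with changes of -2.08 to -1.85 after loess and -0.61 to -0.05 in Cy5 alone. Other probes of some of these genes gave other values. Klf2, a transcription factor of quiescent T cells, changed by -2.01 (SE 0.24, adjusted p = 4.1e-05) on the probe used and by 0.81 on the other. The 2 other probes of Ptprz1, a receptor phosphatase, changed by 0.08 and 0.42, against -1.89 (SE 0.22, adjusted p = 4.05e-05) for the probe used, which was saturated on 2 day 10 arrays. Cox17, a copper chaperone, changed by -2.08 (SE 0.28, adjusted p = 7.16e-05), and its other probe by -0.44.

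The 15 highest genes rose by less. They ran from Shisa5 with 0.80 (SE 0.20, adjusted p = 0.0062) to Rps27 with 1.01, and 13 of the 15 were also higher past the threshold in Cy5 alone and all 15 under median centring, where 51.3% of all genes were. Foxp1, a transcription factor of lymphocytes and monocytes, had 0.44, 0.44, 0.33 and 0.52 on day 25, against -0.26, -0.35, -0.66 and -0.40 on day 10, and Dzip3, a ubiquitin ligase, had -0.23, -0.34, -0.27 and -0.27 on day 25, against -1.20, -0.90, -1.11 and -1.21 on day 10. The days did not overlap for either, with changes of 0.85 (SE 0.12, adjusted p = 9.16e-05) and 0.83 (SE 0.10, adjusted p = 4.34e-05), while other probes of Foxp1 changed by 0.02 and 0.12 and those of Dzip3 by -0.03 and 0.16. S100a6, a calcium-binding protein, changed by 0.84 (SE 0.24, adjusted p = 0.011). Srsf11, a splicing factor, changed by 0.81 (SE 0.25, adjusted p = 0.0183), a call that ended without the day 25 array of mouse 305 or the day 10 array of mouse 315 (adjusted p up to 0.0598). The change of Ppig, a cyclophilin, leaned on 1 array. It had 0.15, 2.01, 0.08 and 0.18 on day 25, against -0.47, -0.17, -0.34 and -0.33 on day 10, with mouse 310 far above the other 3 on day 25, a change of 0.93 (SE 0.29, adjusted p = 0.0192) after loess, 0.46 without that array, and -0.11 in Cy5 alone (adjusted p = 0.867). The remaining genes were Wdfy4 (0.80) and, described above, Ighm, Blnk, Chil3, Clk4, Ifi211, Ifi203 and Hnrnpa1.

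For most called genes the day 25 mean was the most extreme of all days. Of the 2268 lower genes 2101 had a day 25 mean below that of every other day, day 0 included, and of the 2972 higher genes 2463 had a day 25 mean above that of every other day. These genes were chosen because day 25 differed from day 10, which by itself favours such an order. The share over all genes was not computed, so the counts only describe the called genes. Slc4a1 averaged 0.03 on day 0, 0.88 on day 10, 0.72 on day 15, 0.57 on day 20 and -1.10 on day 25. Over the erythroid list the mean level was 0.18, 0.74, 0.54, 0.42 and -0.33 in the same order of days. Most of the decrease lay between days 20 and 25, on the slide of day 25. S100a8 followed another course, with 1.34, -0.43, -0.20, -0.69 and 0.19, so that its day 25 level was above day 10 and below day 0.

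**Figure D5:**
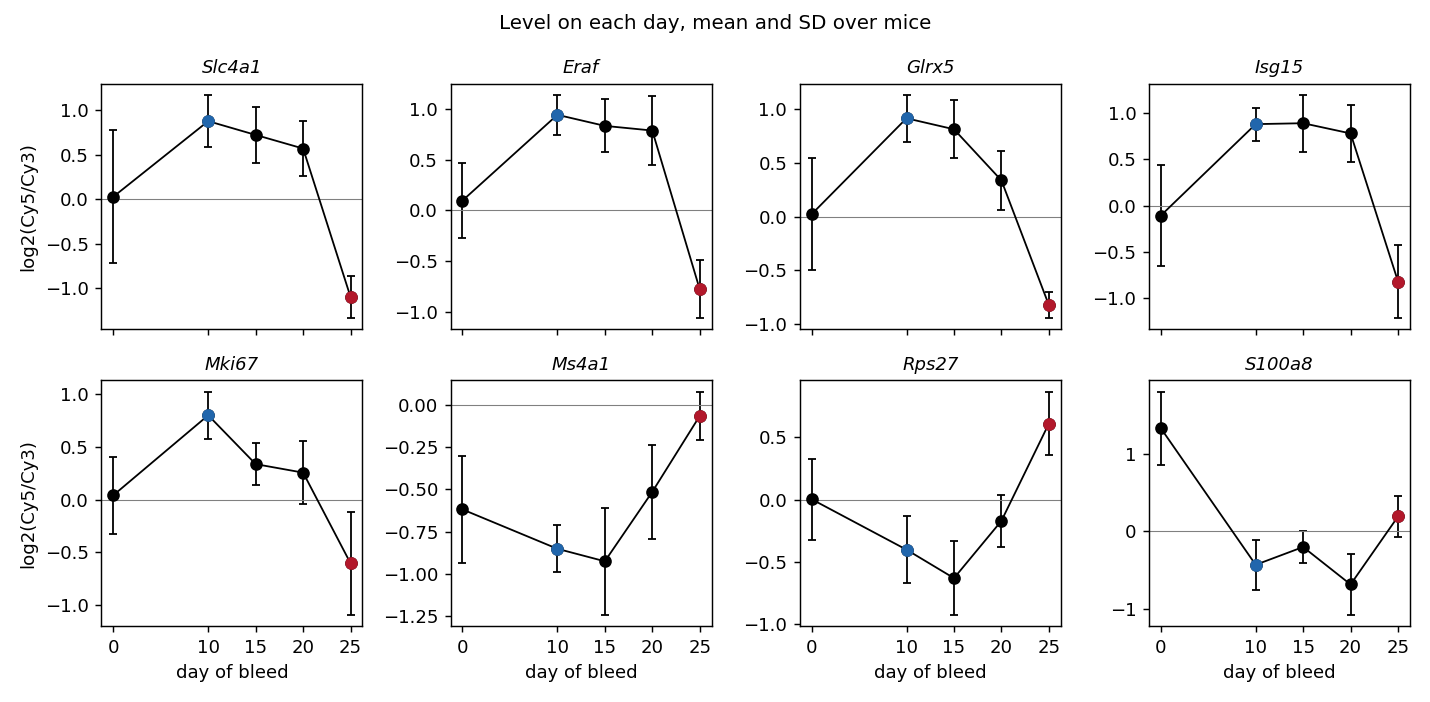
Level in log2(Cy5/Cy3) (vertical axes, each with its own range) against the day of the bleed (horizontal axis) for 8 genes, as mean and SD over mice, with day 10 in blue and day 25 in red. Slc4a1, Eraf, Glrx5, Isg15 and Mki67 have their lowest mean on day 25, Ms4a1 and Rps27 their highest, and S100a8 its highest on day 0.

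Differences between day 25 and day 10 across all genes correlated between mice at r of 0.66 to 0.77, a description over genes, which are not independent and share slides. Over the called genes, which were chosen with the values of these same mice, mouse 310 had the smallest changes, with a median of 0.08 over the higher and -0.15 over the lower genes, against 0.39 and -0.52 in mouse 305, 0.36 and -0.57 in mouse 315 and 0.30 and -0.52 in mouse 320. Each spike-in probe also moved least in mouse 310, from -0.79 to 0.19. The probes moved by -1.61 to -0.88 in mouse 305, -1.76 to -1.27 in mouse 315 and -1.03 to -0.76 in mouse 320. Whether the 2 patterns are linked was not tested.

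Some genes were measurable on 1 of the 2 days only. On all 4 day 25 arrays and no day 10 array 416 genes were well above background, and 5 genes the other way round. More spots of any kind were well above background on day 25 (47.7% to 52.2%, against 38.3% to 45.9% on day 10). A gene could also enter the fit through the day 25 arrays alone. On the ratio to the reference 50 of the 416 passed the threshold, where 34.5% of all genes did, and 376 had a bound above 1-fold. Genes of either kind have only a bound on the dim day, taken from the Cy5 channel and open to dye bias. The largest bound was that of Trim55, a muscle ubiquitin ligase, which was at least 2.15-fold brighter on day 25, while its ratio to the reference averaged -0.32 on day 25 and -0.05 on day 10 (adjusted p = 0.0119). The bounds of Abca3, Dot1l and Setbp1 were at least 1.34-fold, 1.33-fold and 1.29-fold higher on day 25, and their ratios did not pass the threshold (adjusted p = 0.0829, 0.735 and 0.0878).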

How the data were processed

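Blood RNA of 4 mice on 5 days was hybridised to 2-colour Agilent whole mouse genome arrays with 45018 spots, the blood sample in Cy5 and the common reference in Cy3. RNA was kept in RNAlater, extracted with a kit for mouse blood and labelled with QuickAmp, per the labels' protocols. The deposited files hold the mean intensity and local background of each spot in both dyes from Agilent Feature Extraction 9.1.3.1, per the submitters' processing notes. The authors also deposited a table of log10 ratios, which equalled the scanner's LogRatio column in 900360 of 900360 values within 1e-06, so it is Cy5 over Cy3 as the scanner software gave it. 
From the intensities, background was corrected with normexp (offset 50), log2 ratios were normalised by loess within each array with control spots at weight 0, and non-uniform spots were dropped (R 4.3.3, limma 3.58.1, the package data.table in version 1.17.8; python 3.11.15 and matplotlib 3.10.9 for figures). Probes entered the fit if 4 or more of the 20 arrays had Cy5 well above background and every day had 3 or more measured arrays, which left 20937 probes. The brightest probe stood for a gene, leaving 15178 genes, 4339 of them with several probes. Of 1963 called genes with several probes, 609 had another probe with the opposite sign. Probes were named through RefSeq by accession (23374 of 41174), symbol (6733) or synonym (2919), and 8148 kept the array's name. A single fit over all 20 arrays gave 5 day means, and day 25 minus day 10 was tested with limma and Benjamini-Hochberg adjustment at 0.05. Every adjusted p in the text is from limma unless another setting is named. "Cy5 alone" is Cy5 intensity after normexp and quantile normalisation, in log2.

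The same animals were bled on both days, so mouse numbers pair the arrays. Deviations from the day means correlated within mice at 0.245, 0.214, 0.176 and 0.353. Alternatives were other background corrections, centrings and scalings, the Cy5 channel alone, the scanner's log ratio, no filter or a stricter filter on dim probes, averaged probes, the 8 arrays alone, the mouse as a block, and leaving out each array. Between-array Aquantile scaling left the ratios as they are. In a fit to simulated day 25 and day 10 values for 15178 genes, 96% of 100 genes changed by 0.75 and 100% of 100 changed by 1.5 were recovered, with 8 false calls. The simulated noise was normal and independent between genes and arrays, with no effect of slide, brightness or mouse. It checks the fit only and cannot show how many of the real calls are false. The members, the 35 gene lists and the named genes were chosen with earlier results of these data known. Named were the 15 highest and 15 lowest called genes with a symbol and 1 sign in every mouse, up to 4 called members per list by lowest adjusted p (2 members with the lowest p where none was called), a fixed list, 4 genes with the largest bounds, and 21 genes added after their values were seen. Some genes that meet these rules are not reported here. Of the fixed list, Alas2 and Ly6g were not tested here. P-values measure the spread between these 4 mice a day on 1 slide a day.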

Additional observations from a re-analysis of the deposited data

Results flagged for a closer look

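For each named gene the 4 mice of a day were searched for 1 value far from the other 3, with the gap to the nearest, as a share of the whole range, above Dixon's critical value. Of 346 sets of 4 values 22 had such a mouse, where chance gives about 1 in 20. The day 25 array of mouse 305 held 7 of the 22.

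Mouse 305 stood above the other mice on day 25 for 7 genes. Blnk was 0.41 in mouse 305 on day 25, against -0.30 to -0.20 in the other mice. Cd79b was 0.63 in mouse 305 on day 25, against -0.14 to -0.03 in the other mice. H2-Eb1 was 0.70 in mouse 305 on day 25, against 0.41 in each of the other mice, and H2-DMb1 was 0.29 in mouse 305 on day 25, against -0.11 to -0.05 in the other mice. S100a9 was 0.62 in mouse 305 on day 25, against -0.20 to -0.12 in the other mice. Rpl22 and Ier5 had the same mouse apart, Rpl22 with 0.66 in mouse 305 on day 25, against 0.30 to 0.36 in the other mice, and Ier5 with 0.20 in mouse 305 on day 25, against -0.14 to -0.11 in the other mice.

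Other mice stood apart on day 25 for single genes. Ppig was 2.01 in mouse 310 on day 25, against 0.08 to 0.18 in the other mice. Gabarap was -0.44 in mouse 310 on day 25, against -1.03 to -0.94 in the other mice, and Tnfaip3 was 0.027 in mouse 310 on day 25, against 0.29 to 0.32 in the other mice. Ptprz1 was 0.11 in mouse 320 on day 25, against -0.38 to -0.33 in the other mice. S1pr1 was 0.58 in mouse 320 on day 25, against 0.16 to 0.17 in the other mice, and Bnip3l was -0.11 in mouse 320 on day 25, against -0.70 to -0.68 in the other mice.

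On day 10 Rhd and Slc4a1 each had 1 low mouse. Rhd was 0.78 in mouse 305 on day 10, against 1.41 to 1.42 in the other mice, and Slc4a1 was 0.44 in mouse 320 on day 10, against 0.97 to 1.07 in the other mice. Sqstm1 was 1.31 in mouse 310 on day 10, against 1.07 to 1.08 in the other mice. Txk was 0.006 in mouse 310 on day 10, against -0.35 to -0.29 in the other mice, and Cd8b1 was -0.47 in mouse 320 on day 10, against -0.15 to -0.12 in the other mice. H2-DMb1 was -0.73 in mouse 315 on day 10, against -0.48 to -0.43 in the other mice, and S100a9 was -0.061 in mouse 315 on day 10, against -0.65 to -0.62 in the other mice. Gpc3 was 0.21 in mouse 315 on day 10, against -0.06 to -0.02 in the other mice, and Abca3 was 0.12 in mouse 320 on day 10, against -0.01 to 0.01 in the other mice.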

How the results depend on the processing

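The 5240 calls (2972 higher, 2268 lower) were 1027 (176, 851) with negative control spots as background and 7918 (7787, 131) under median centring. Added after seeing the data, the scale method between arrays gave 3383 calls with 1569 higher, and the median of the genes kept gave 8165 with 3765 lower. The Cy5 channel alone left 1392 lower, the 8 arrays alone gave 3271 calls with 1725 higher, and those 8 with the mouse as a block gave 3349 with 1642 higher. Leaving out single arrays gave 3900 to 6113 calls, 2200 to 3599 of them higher and 1669 to 2514 lower. The cause of these moves was not tested, beyond the fewer samples in the fits that leave arrays out.

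Of 155 called genes named here, the direction and the call held for 152 with no background correction, 49 with negative control spots, 78 under median centring, 31 with the scale method, 95 with the median of the genes kept, 106 in Cy5 alone, 139 with the scanner's log ratio, 148 with all probes averaged and 134 to 150 without single arrays. With the mouse as a replicate block on all arrays, 5341 genes passed and 152 of the 155 kept their call. Fkbp11, Ikzf2 and Tnfaip3 lost theirs (adjusted p = 0.0579, 0.0609 and 0.0588), and the block changed no other named call.

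Changes that turned sign are given as log2 values. Under median centring, where the median of all genes was 0.46 and rose with brightness, they were Ace 0.22, Tgfb1 0.41, Il4ra 0.88, Zbtb46 0.15, Ms4a2 0.12, Ctsw 0.81, Itga2b 0.32, Selp 0.46, Gp5 0.65, Gp1bb 0.69, Ppox 0.25, Atg12 0.36, Gabarap 0.26, Tap2 0.19, Ifitm3 0.46, Cyba 0.83, Atp5l 0.48, Cox7a2 0.31, Cox7b 0.46, Slc16a1 0.34, Car9 0.44, Jund 0.45, Hsf1 0.69, Eif5 0.083, Tat 0.49, Krt1 0.20, Cd79a 0.49, Trim55 0.34, Hba-a1 0.11, Gata1 0.23, Fth1 0.44, Cat 0.049, Rpl41 0.076 and Rplp0 0.38. The list medians that turned were 0.115 for heme and iron, 0.265 for autophagy, 0.285 for the cell cycle and 0.934 for antioxidant enzymes. Set against genes as bright under the same centring, the medians of these lists were -0.33, -0.23, -0.13 and -0.17. With negative control spots as background the changes that turned were Fkbp11 -0.13, Jund 0.21, Bcl2 -0.043, Oaz1 0.097, Trim55 0.056, Hbb-bt 0.54, Hba-a1 0.64, Ftl1 0.21, Fth1 0.75, Gpx1 0.053, Ubb 0.19, Rpl41 0.30 and Rplp0 0.15. In Cy5 alone they were Ppig -0.11, Ctsw 0.009, Tnfaip3 -0.005, Car9 0.21, Hsf1 0.94, Tat 0.51, Trim55 1.23, Hbb-bt 0.13, Hba-a1 0.29, Fth1 0.66 and Rpl41 0.33. With the median of the genes kept they were Il4ra 0.40, Fkbp11 -0.26, Ctsw 0.33, Ikzf2 -0.046, Gp5 0.17, Gp1bb 0.21, Cyba 0.34, Hsf1 0.21, Tat 0.009 and Krt10 -0.11, and 0.453 for the antioxidant list. With the scanner's log ratio they were Trim55 0.26, Hba-a1 0.11 and Fth1 0.16. Fkbp11 was -0.007 with no background correction, and Ikzf2 was -0.300 with no filter on dim probes. Without single arrays the antioxidant median was -0.103 to 0.007, at 0.005 and 0.007 without the day 10 array of mouse 315 or 320.

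With 4 arrays a day, 1 slide a day and no dye swap, the number of arrays and the day's slide limit what a difference between days shows. Dim probes have little signal over background in both dyes.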
